A study of Mus musculus with 5 samples.

Results

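Red pulp type macrophages were picked out of droplet libraries of sorted spleen cells from leukaemic mice, and their RNA was compared between 4 libraries from mice given a STAT3 decoy oligonucleotide and 1 library from PBS-treated mice. A barcode was a member when C1qa, C1qb and C1qc together held at least 10 UMIs (unique molecular identifiers, each standing for 1 captured RNA molecule) per 10000 and when Spic, Vcam1 and Cd5l together held more UMIs than Clec4a3 and Fcgr4. Barcodes with 5% or more of their UMIs in S100a8 and S100a9, or with 5 or more UMIs per 10000 in Cpa3, Ms4a2 and Fcer1a, were left out. The rule found 465 members among the 32240 barcodes kept for study, which are those with 500 or more genes, 1000 or more UMIs and no more than 10% of UMIs from mitochondrial genes. The members were chosen by the UMIs of these genes, so their levels are given below as a description.

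All mice were C57BL/6 animals engrafted intravenously with GFP+ CMM acute myeloid leukaemia cells, and treatment began when about 1% of blood cells were GFP+. The Decoy mice received CpG-STAT3dODN, a STAT3-binding DNA decoy joined to a CpG oligonucleotide that is read by Toll-like receptor 9, and the PBS mice received the vehicle, both as 3 intravenous injections given every other day. GFP+c-Kit+ cells were sorted from spleen, so macrophages were not the target of the gate. The labels do not say whether Decoy 2, 3, 5 and 6 came from separate mice, so p-values measure the spread between these libraries, which may be technical, and the single PBS library gives no spread of its own.

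Red pulp macrophages are the resident macrophages of the blood-filtering part of the spleen. They engulf ageing red cells, break down haem with haem oxygenase 1, store iron in ferritin and send it back to plasma through ferroportin. Their identity depends on the transcription factor Spic, whose gene is switched on by haem, and on colony-stimulating factor 1 signalling.

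The identity markers outside the rule were present. Spic, Vcam1 and Cd5l admitted the members, so of the identity markers only Hmox1, Marco and Slc40a1 bear on the label. Together these held 1247 counts per 1000000 UMIs (CPM) in PBS and 2938 to 3712 CPM in the Decoy libraries. In the other C1q-positive class, the Fcgr4 and Clec4a3 macrophages, which passed the same limits but held more Clec4a3 and Fcgr4 UMIs, the same 3 genes summed to 134 CPM in PBS and 1112 to 2062 CPM in the Decoy libraries. Kit, the receptor used in the sort, had 0 UMIs in the PBS members and 7, 7, 8 and 0 UMIs in the members of Decoy 2, 3, 5 and 6. Endothelial and stromal markers reached at most 69.4 CPM in sum, with 20 of 21 genes at 0 in PBS. Among 16 other identity genes averaging at least 20 CPM in either class, 7 were higher in the members in all 5 libraries. Cd68 was lower in all 5. Adgre1, a macrophage marker, had no constant order between the classes. Barcodes were thinned to equal depth for this gene. It was found in 0%, 11.4%, 26.7%, 24.3% and 28.0% of the members of PBS, Decoy 2, 3, 5 and 6. The Fcgr4 and Clec4a3 macrophages stood at 18.5%, 22.9%, 18.8%, 24.3% and 24.8%. Vsig4, a resident macrophage receptor, was at 0 in every library but Decoy 5, where it had 17 UMIs. Of 5 marginal zone macrophage markers, 4 were at 0 in the small PBS sum, and the fifth, Marco, is also on the red pulp list. Over the Decoy members 2 of the 5 were at 0. With Marco included, the 5 summed to 228 CPM in PBS and 155 to 431 CPM in the Decoy libraries. A marginal zone part among the members was not tested.

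The libraries differed in ways that touch the members. PBS and Decoy 2 consisted mostly of barcodes above the mast cell gene limit (14498 of 17219 and 4811 of 6252), whereas Decoy 5 had 13 of 3607. Over all kept barcodes the leukaemic and mast cell markers summed to 193 CPM in Decoy 5 and 1040 to 2602 CPM in the other 4 libraries, so Decoy 5 went against the sort on its label. No barcode was a member in more than 1 library, and 107 kept barcode sequences occurred in a pair of libraries. The members summed to 101075 UMIs in PBS and to between 302754 and 3358463 UMIs in the Decoy libraries, so that a single PBS UMI stood for 9.56 CPM and a floor of 3 UMIs for 28.7 CPM. Near the rule's threshold, 77 members led by 1 UMI and 93 barcodes that passed the other limits were tied.

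Members made up a larger part of the Decoy libraries than of the PBS library. They were 21 of 17219 kept barcodes in PBS (0.122%, exact 95% binomial interval 0.0755 to 0.186), 35 of 6252 in Decoy 2 (0.560%), 101 of 1941 in Decoy 3 (5.20%), 226 of 3607 in Decoy 5 (6.27%) and 82 of 3221 in Decoy 6 (2.55%). Every Decoy library was above PBS, and Decoy 2 was closest to it. The Decoy mean was 3.64% ± 2.58 (SD, n = 4), a difference of 3.52 percentage points that gave p = 0.4 in an exact two-sided permutation test, where the smallest p this design allows is 0.2. The difference was 2.65 points without Decoy 5 and 1.20 points without members holding lymphoid or stromal markers. This share also moves with how many leukaemic barcodes the sort returned, and the part of that in the difference cannot be told apart.

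Among the C1q-positive macrophages alone, the order was the opposite. Red pulp type barcodes were 43.8% of both classes in PBS (interval 29.5 to 58.8) and 26.7%, 21.1%, 26.9% and 17.2% in Decoy 2, 3, 5 and 6. All 4 Decoy libraries were below PBS, with a mean of 22.98% ± 4.72 (SD, n = 4), a difference of -20.8 points (exact two-sided permutation p = 0.2, the smallest possible), and -22.1 points without Decoy 5. Depth moved with this share: among barcodes of at least 5000 UMIs it was 18.5% in PBS and 11.9% ± 2.72 in Decoy (SD, n = 4), and under 5000 UMIs it was 76.2% and 59.0% ± 10.2.

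**Figure D1:**
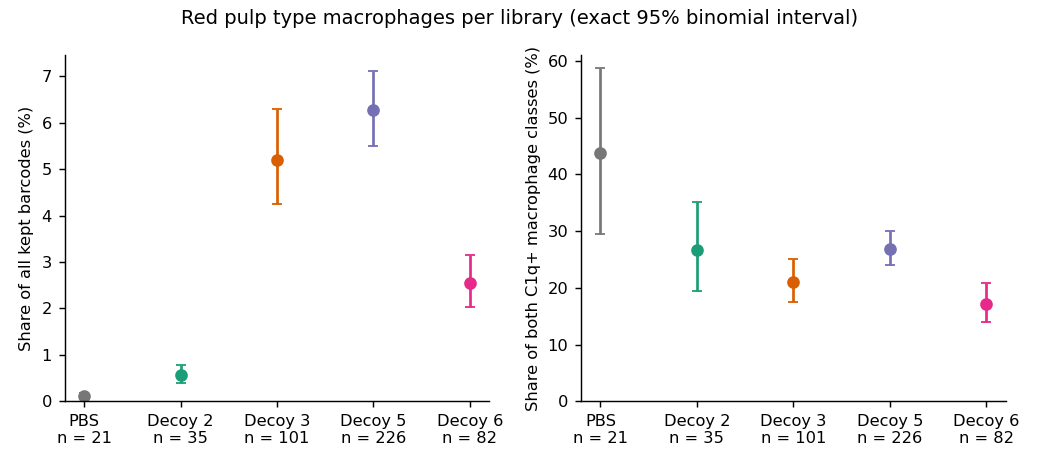
Red pulp type macrophages in each library as a percentage of all kept barcodes (left) and of both C1q-positive macrophage classes (right), with exact 95% binomial intervals that cover counting error only and the number of members under each library. The 4 Decoy points lie above the PBS value of 0.122% on the left and below the PBS value of 43.8% on the right.

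Among the genes that chose the members, Spic and Vcam1 had PBS values inside the Decoy range, and Cd5l, C1qb and Fcgr4 had PBS values below all 4 Decoy values. Spic stood at 621 CPM in PBS and at 592, 558, 656 and 622 CPM in Decoy 2, 3, 5 and 6. Vcam1, an adhesion molecule, stood at 764 CPM in PBS and 558 to 797 CPM in Decoy, and Cd5l, a secreted scavenger protein, at 659 CPM in PBS and 1028 to 1237 CPM in Decoy. C1qb, a chain of complement C1q, stood at 1988 CPM in PBS and 2459 to 3151 CPM in Decoy. Fcgr4, an activating receptor for immunoglobulin G, stood at 268 CPM in PBS and 996, 1181, 1061 and 1293 CPM in Decoy.

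Across all genes, 9734 passed the low-count filter and 2 were called at an adjusted p under 0.05 by edgeR's quasi-likelihood test with Benjamini-Hochberg adjustment, which is 0.0205% of those tested. The 2 genes were Ccl5, which rose in the Decoy members (1 gene, 0.0103% of those tested), and Fabp5, which fell (also 0.0103%). At an unadjusted p under 0.05 there were 1096 genes (11.3%). DESeq2 called 139 genes and limma voom 3.

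Ccl5 encodes a chemokine that draws T cells and monocytes (chromosome 11, 83525778 to 83530518, minus strand, mm10). It had 0 UMIs in the 21 PBS members, against 1068, 626, 873 and 1059 CPM in Decoy 2, 3, 5 and 6. The Decoy mean of 906 CPM ± 207 (SD, n = 4) was at least 31.6-fold higher than the PBS floor of 3 UMIs, with an adjusted p of 0.0165 (edgeR). Most of these UMIs sat in barcodes that also held T or NK cell UMIs. Members without T or NK cell UMIs held 40 of 312 Ccl5 UMIs in Decoy 2 and 562 of 1351 in Decoy 3. In Decoy 5 and 6 they held 783 of 2920 and 443 of 1296. A single Decoy 2 member held 86.9% of the Ccl5 UMIs of that library. Among members with no UMI of the 18 T and NK cell markers, Ccl5 was still at 0 in PBS and at 195, 460, 425 and 442 CPM in Decoy, a mean at least 8.83-fold above the PBS floor of 43.1 CPM there. T cell markers summed to 9.89 CPM in PBS and 313 to 436 CPM in the Decoy members, and NK cell markers to 9.89 CPM and 161 to 456 CPM. The call was lost without Decoy 6 (adjusted p = 0.0575), among members under 5000 UMIs (0.366), without droplets holding 5 or more UMIs per 10000 of lymphoid or stromal markers (0.268), without lymphoid markers other than immunoglobulin (0.242) and with limma voom (0.786).

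With each member thinned to 1000 UMIs, 0 of 21 PBS members held a Ccl5 UMI (a limit of 14.3% from 3 counts, exact upper bound 16.1%), against 14.3%, 27.7%, 18.1% and 30.5% of the members of Decoy 2, 3, 5 and 6 (unthinned 28.6%, 49.5%, 42.0% and 63.4%). The Decoy 2 interval of 4.81% to 30.3% overlapped that of PBS, and no background share from cells that lack Ccl5 was set beside these. The Fcgr4 and Clec4a3 macrophages stood at 38.8 CPM in PBS and 1244, 1502, 1366 and 2377 CPM in Decoy. The difference between the classes in the size of the change did not pass the test (edgeR adjusted p = 0.502).

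Fabp5 encodes a fatty acid-binding protein of the cytoplasm (chromosome 3, 10012548 to 10016607, plus strand). It stood at 1175 CPM in PBS, from 123 UMIs (95% Poisson interval 977 to 1402 CPM), and at 311, 295, 250 and 216 CPM in the Decoy libraries. All 4 Decoy values lay far under the PBS interval. The log2 fold change was -2.14 ± 0.22 (SE), with an adjusted p of 0.0244 (edgeR). In members of at least 5000 UMIs the level was 822 CPM in PBS and 148 to 313 CPM in Decoy, with an adjusted p of 0.145. The call was also lost without Decoy 3 (adjusted p = 0.12), Decoy 5 (0.113) or Decoy 6 (0.0728), under 5000 UMIs (0.154), and without either set of mixed droplets (0.268 and 0.308), always with the same direction.

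The iron-handling genes did not pass the test, and are given as values. Hmox1, which opens the haem ring (chromosome 8, 75093621 to 75100589, plus strand), stood at 688 CPM in PBS (interval 538 to 866) and at 1889, 1599, 2422 and 2261 CPM in Decoy 2, 3, 5 and 6, which is 1.57 ± 0.28 on the log2 scale (SE, edgeR adjusted p = 0.140). Slc40a1, which encodes ferroportin, the only known cellular iron exporter (chromosome 1, 45908068 to 45926523, minus strand), stood at 296 CPM in PBS (interval 201 to 420) and at 1116, 870, 880 and 1038 CPM, or 1.72 ± 0.26 on the log2 scale (SE, edgeR adjusted p = 0.134). Both genes had all 4 Decoy values above the PBS interval. Without Decoy 2 their edgeR adjusted p-values were 0.0466 and 0.0228, and DESeq2 called both.

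The chains of ferritin, the iron store, lay on opposite sides of PBS in the sums over all members. Fth1, the heavy chain that oxidises iron, stood at 12671 CPM in PBS and 15704 to 18146 CPM in Decoy, while Ftl1, the light chain, stood at 12413 CPM in PBS and 8268 to 9623 CPM in Decoy. Among members under 5000 UMIs the Ftl1 value of PBS (17839 CPM) lay inside the Decoy range of 13968 to 19679 CPM. Slc48a1, which carries haem out of the phagolysosome, stood at 38.2 CPM in PBS from 4 UMIs and 153 to 171 CPM in Decoy, and Slc11a1, an iron transporter of the same compartment, at 134 CPM in PBS and 305 to 322 CPM in Decoy; the transporters were named after their values were seen. Of the 17 iron and haem genes with a mean of at least 50 CPM, 11 had all 4 Decoy libraries above PBS and 5 had all 4 below, against 43.3% and 29.0% of the 2744 genes at that level, and their median log2 fold change was 0.51 against 0.14 for those genes. Among members of at least 5000 UMIs 10 were above and 4 below (39.1% and 36.6% of all genes). Among shallower members 7 were above and 4 below (32.3% and 23.3%). The mean covers 5 libraries, 4 of them Decoy. A gene low in PBS could therefore pass the limit through Decoy alone and then count as above, here and in each list below. All genes at that level passed the same limit.

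**Figure D2:**
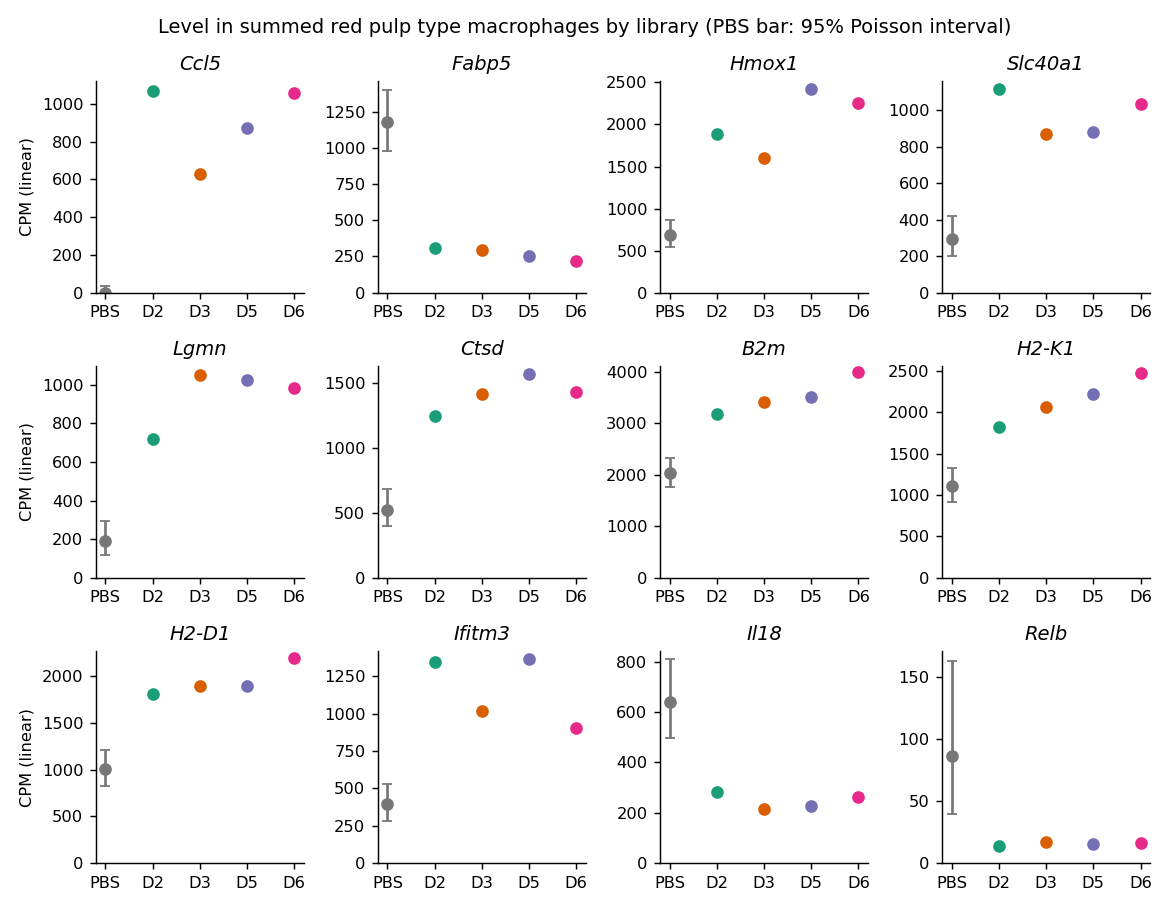
CPM of 12 genes in the summed red pulp type macrophages of each library, on linear axes that start at 0; the bar on PBS is the 95% Poisson interval of its UMIs, and D2 to D6 are the Decoy libraries. Ccl5 is at 0 in PBS and at 626 to 1068 CPM in Decoy, and Fabp5, Il18 and Relb are highest in PBS.

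Genes of MHC class I presentation, which shows peptides from the cytosol to CD8 T cells, stood above PBS in every Decoy library, although none passed the test. All 12 genes of the list with a mean of at least 50 CPM had their 4 Decoy values above PBS, against 43.3% of all genes at that level, with a median log2 fold change of 0.99. B2m, the shared light chain, stood at 2026 CPM in PBS and 3175, 3414, 3508 and 3995 CPM in Decoy (edgeR adjusted p = 0.183). H2-K1 stood at 1109 CPM in PBS and 1824, 2055, 2220 and 2476 CPM, and H2-D1 at 1003 CPM and 1810, 1897, 1897 and 2199 CPM. For 9 of the 12 genes the lowest Decoy value lay above the PBS counting interval. Among members of at least 5000 UMIs 11 of the 12 had all 4 Decoy libraries above PBS (39.1% of all genes), and among shallower members 7 did (32.3%). RNA of other cells differed between the libraries too. Monocyte markers summed to 287 CPM in PBS (6 of 9 genes at 0) and 509 to 2618 CPM in the Decoy members. B cell markers summed to 702 CPM in PBS and 106 to 42152 CPM in Decoy, with Decoy 2 below PBS. Without members holding lymphoid or stromal markers the list's median log2 fold change was 0.96, and for all alternatives run it lay between 0.53 and 2.24.

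The promoters of these genes are shown because 9 of those found held the core letters bound by interferon regulatory factors (IRF), some of them near a kappaB match. RefSeq promoters (GRCm38.p6) were found for 13 of the 16 genes on the list, and each sequence below is the 250 bases before the start (for H2-K1 the first of 2 listed starts), 5′ to 3′ on the gene's strand, with the matches in capitals. The IRF core AANNGAAA was searched on both strands and occurs in 21.3% of 32851 promoters of this length; the kappaB motif occurs in 3.90%. On the list, 9 of the 13 held the IRF core and 7 the kappaB motif; H2 genes are near-identical copies of each other, so these are not independent.
H2-K1 (chr17:34000348-34000597, minus strand): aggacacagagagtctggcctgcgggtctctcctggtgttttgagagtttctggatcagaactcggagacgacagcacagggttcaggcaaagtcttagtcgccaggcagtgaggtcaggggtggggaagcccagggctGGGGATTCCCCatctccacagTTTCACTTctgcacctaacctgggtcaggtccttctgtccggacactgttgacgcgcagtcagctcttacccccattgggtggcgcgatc
H2-D1 (chr17:35262844-35263093, plus strand): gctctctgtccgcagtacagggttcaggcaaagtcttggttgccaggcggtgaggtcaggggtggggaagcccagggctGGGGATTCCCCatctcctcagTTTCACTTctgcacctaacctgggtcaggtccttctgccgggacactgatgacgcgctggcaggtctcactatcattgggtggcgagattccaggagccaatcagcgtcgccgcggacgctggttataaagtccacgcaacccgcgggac
B2m (chr2:122147437-122147686, plus strand): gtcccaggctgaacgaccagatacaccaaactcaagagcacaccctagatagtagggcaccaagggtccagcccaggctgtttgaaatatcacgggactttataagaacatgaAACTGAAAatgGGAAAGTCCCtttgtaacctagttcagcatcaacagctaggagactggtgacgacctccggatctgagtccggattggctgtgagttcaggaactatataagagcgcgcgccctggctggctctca
Tap1 (chr17:34187306-34187555, plus strand): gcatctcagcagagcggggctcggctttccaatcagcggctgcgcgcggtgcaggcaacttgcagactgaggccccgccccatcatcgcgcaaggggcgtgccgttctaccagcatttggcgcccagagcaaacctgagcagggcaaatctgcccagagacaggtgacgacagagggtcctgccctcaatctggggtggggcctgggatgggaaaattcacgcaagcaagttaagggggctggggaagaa
In H2-K1 and H2-D1 the IRF core follows the kappaB match after 10 bases, and in B2m it precedes it by 3 bases, with no overlap. Tap1, which encodes a subunit of the peptide transporter and stood at 76.4 CPM in PBS and 159 to 177 CPM in Decoy, held neither set of letters in this window. A match is a description of the letters only.

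Lysosomal genes followed: 17 of 19 had all 4 Decoy libraries above PBS and 1 had all 4 below (43.3% and 29.0% of all genes). Their median log2 fold change was 0.65, with no call. Lgmn, an endosomal protease that can cleave Toll-like receptor 9, stood at 191 CPM in PBS from 20 UMIs and 719, 1049, 1026 and 984 CPM in Decoy (log2 fold change 2.31 ± 0.32, SE, edgeR adjusted p = 0.0883). Ctsd, cathepsin D, stood at 526 CPM in PBS and 1246 to 1575 CPM in Decoy, and Psap, the saposin precursor, at 2141 CPM and 2515 to 3114 CPM. The count was 16 of 19 among members of at least 5000 UMIs (39.1% of all genes) and 5 of 19 among shallower members, where 32.3% of all genes had the same order.

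Of 22 type I interferon response genes, 19 were above PBS in all 4 Decoy libraries and none below in all 4 (43.3% and 29.0% of all genes), with a median log2 fold change of 0.84 and no call. On the full list, 10 of 44 genes had 0 UMIs in the PBS members, and such a gene could enter the count through the Decoy libraries alone. The count was 18 of 22 in members of at least 5000 UMIs (39.1% of all genes). In shallower members it was 8 of 22 with 2 below, near the 32.3% of all genes there. Ifitm3, an antiviral membrane protein, stood at 392 CPM in PBS (interval 281 to 532) and 1345, 1015, 1363 and 901 CPM in Decoy. Isg15 and Cxcl9 were chosen after their values were seen. Not every gene of the list had this order: Isg15, among the genes whose values were mixed, stood at 162 CPM in PBS and 181, 57.5, 108 and 37.6 CPM in Decoy. Interferon gamma response genes were near the background of 43.3% in the sums over all members, with 10 of 19 above in all 4 and 3 below. Among members under 5000 UMIs 12 of 19 were above and 4 below (32.3% and 23.3% of all genes). Among deeper members 9 of 19 were above and 6 below (39.1% and 36.6% of all genes). Cxcl9, a chemokine for activated T cells, stood at 506 CPM in PBS and 123 to 275 CPM in Decoy.

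The lists of spleen macrophage identity, uptake and Fc receptors held no call; their counts stand against 43.3% of all genes above and 29.0% below. Among members of at least 5000 UMIs all genes stood at 39.1% above and 36.6% below, and among shallower members at 32.3% and 23.3%. Of 13 identity genes beyond the markers, 9 had all 4 Decoy libraries above PBS and 1 had all 4 below, with a median log2 fold change of 0.75. In deep members 7 of 13 were above and 2 below, and in shallow members 7 were above and 0 below. For uptake and lipid genes 13 of 16 were above in deep and 8 in shallow members, and for complement and Fc receptor genes 6 and 7 of 12. Csf1r, the receptor for colony-stimulating factor 1, stood at 459 CPM in PBS (interval 338 to 608) and 708, 717, 591 and 744 CPM in Decoy 2, 3, 5 and 6, and Decoy 5 lay within the PBS interval. Among uptake and lipid genes, 11 of 16 were above in all 4 and 3 below; Mertk, a receptor for dying cells, stood at 66.9 CPM in PBS from 7 UMIs and 130, 171, 136 and 164 CPM in Decoy. Among complement and Fc receptor genes, 8 of 12 were above and 1 below; Fcer1g, the signalling chain shared by activating Fc receptors, stood at 1978 CPM in PBS (interval 1718 to 2267) and 3411, 3599, 3416 and 4196 CPM in Decoy (edgeR adjusted p = 0.171).

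Among endosomal Toll-like receptor genes, 6 of 9 were above in all 4 Decoy libraries and 1 was below (43.3% and 29.0% of all genes), but 2 of 9 were above among members under 5000 UMIs (32.3% of all genes). Hsp90b1, a chaperone that folds Toll-like receptors, stood at 382 CPM in PBS and 773, 1616, 1869 and 1238 CPM in Decoy. It is also made in quantity by plasma cells, whose markers summed to 39.6 CPM in PBS (5 of 8 genes at 0) and 36.3, 5249, 13416 and 13340 CPM in the members of Decoy 2, 3, 5 and 6. Their part in its level was not tested. Of 14 macrophage transcription factors, 7 were above and 2 below, near the background. Id2, an inhibitor of DNA binding, stood at 162 CPM in PBS and 455, 537, 471 and 488 CPM in Decoy (adjusted p = 0.139, edgeR), whereas for Zeb2 the PBS value of 497 CPM lay inside the Decoy range of 373 to 592 CPM.

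**Figure D3:**
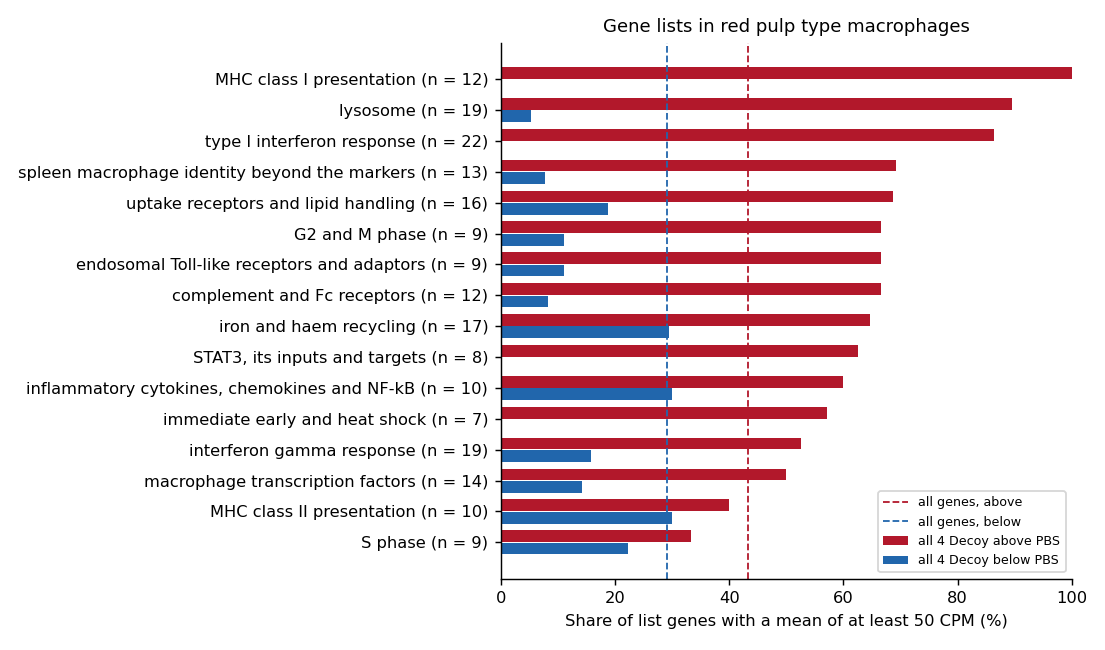
For each gene list, the percentage of its genes with a mean of at least 50 CPM whose 4 Decoy libraries all lay above (red) or all below (blue) PBS, with dashed lines for all 2744 genes at that level (43.3% and 29.0%). MHC class I presentation reaches 100% above (12 of 12), and MHC class II presentation (4 of 10 above) stays near the background.

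MHC class II genes, which show peptides to CD4 T cells, stayed near the background in the sums over all members, with 4 of 10 above and 3 of 10 below in all 4 Decoy libraries and a median log2 fold change of 0.05. Among members under 5000 UMIs, 0 of 10 were above and 7 of 10 below (32.3% and 23.3% of all genes). Among deeper members 3 of 10 were above and 3 below (39.1% and 36.6% of all genes). Cd74, the invariant chain, stood at 4042 CPM in PBS and 3699, 3662, 4024 and 4934 CPM in Decoy, so the PBS value lay inside the Decoy range. In shallow members it stood at 3832 CPM in PBS and 1643 to 2954 CPM in Decoy, and H2-Aa, a class II chain named after its values were seen, at 1083.5 CPM and 510 to 763 CPM.

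Of the genes closest to the drug's design, STAT3 itself was measured at low depth. Stat3 stood at 86.0 CPM in PBS from 9 UMIs (interval 39.3 to 163) and 127, 112, 103 and 112 CPM in Decoy, and all 4 values lay within the PBS interval. Socs3, a feedback inhibitor induced by STAT3, had 4 UMIs in PBS (38.2 CPM) and 20.5 to 44.2 CPM in Decoy. On the list of STAT3, its inputs and targets, 5 of 8 genes had all 4 Decoy libraries above PBS and none below (43.3% and 29.0% of all genes), with a median log2 fold change of 0.27 and no call. Among members under 5000 UMIs 3 of 8 were above and 2 below, near the 32.3% and 23.3% of all genes there. Tlr9, the receptor for CpG DNA, had 1 UMI in PBS and 1 to 7 UMIs per Decoy library, which is too few for a comparison.

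On the list of inflammatory cytokines, chemokines and NF-kB, 6 of 10 genes had all 4 Decoy libraries above PBS and 3 had all 4 below. The shares over all genes were 43.3% and 29.0%, and the list's median log2 fold change was 0.64. Among members under 5000 UMIs 4 of 10 were above and 5 below (32.3% and 23.3% of all genes). Against the larger part of the list, Il18, C3 and Relb, chosen after their values were seen, were highest in PBS. Il18, an interleukin of the interleukin 1 family, stood at 640 CPM in PBS (interval 496 to 813) and 284, 216, 226 and 263 CPM in Decoy, and C3, the central complement protein, at 325 CPM in PBS and 30.8 to 114 CPM in Decoy. Relb, an NF-kB subunit, stood at 86.0 CPM in PBS from 9 UMIs and 13.7 to 17.1 CPM in Decoy. None of these passed the test (edgeR adjusted p = 0.134 for Il18, 0.292 for C3 and 0.159 for Relb). Il18 was also higher in shallow than in deep members (below), and the PBS sum drew more of its UMIs from shallow members. Apoe, a lipid carrier, stood at 1261 CPM in PBS and 577 to 702 CPM in Decoy (adjusted p = 0.158), and in PBS it came almost wholly from members under 5000 UMIs (3409 CPM, against 47.4 CPM in deeper members). In the deeper members the order was the reverse, since the Decoy libraries stood at 396, 608, 673 and 494 CPM.

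Cell cycle genes were present in both treatments. Among members of at least 5000 UMIs, 1 of 5 in PBS and 2 of 7, 13 of 46, 26 of 104 and 9 of 45 in Decoy 2, 3, 5 and 6 held at least 10 UMIs per 10000 of the G2 and M phase list. The percentages were 20% in PBS and 20% to 28.6% in Decoy. No call was made on either cell cycle list.

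Side by side with the Fcgr4 and Clec4a3 macrophages of the same libraries, the members differed well beyond the genes of the rule; this contrast follows from the rule and is given as a description. Of 5876 genes with a mean of at least 20 CPM in either class, 444 (7.56%) were higher and 973 (16.6%) lower in red pulp type barcodes in all 5 libraries. Igf1, insulin-like growth factor 1, stood at 257 CPM in PBS members and 102 to 145 CPM in Decoy members, against 8.63 and 17.0 to 26.8 CPM in the other class. Fcna, the lectin ficolin A, stood at 178 CPM in PBS and 265 to 383 CPM in Decoy, against 6.47 and 31.7 to 76.6 CPM. Trf (transferrin), Gfra2 (a receptor for neurturin) and Hpgd (which inactivates prostaglandins) were also higher in all 5 libraries, with smallest log2 ratios of 2.06, 2.05 and 1.84. Ubd and Cd55, an inhibitor of complement, completed the genes with enough PBS UMIs to compare; C6, Ccr3, C2, Paqr9 and Raver2 had at most 2 UMIs in the PBS members and rest on the Decoy libraries.

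Genes lower in the members included an acute-phase protein and a monocyte receptor. Saa3, an acute-phase protein, stood at 0 in the PBS members and 162, 2796, 1960 and 598 CPM in Decoy 2, 3, 5 and 6, against 502.5 CPM and 6264 to 7946 CPM in the other class. Ccr2, the receptor that brings monocytes out of marrow, stood at 0 in PBS and 38.6 to 92.5 CPM in Decoy, against 125 CPM and 110 to 292 CPM. Alox5ap, Emb, Ms4a4c, Ms4a6b, Tmem176a, Tmem176b, Ifitm3, Pstpip1, Ptpre and Socs3 were also lower in all 5 libraries. By list, 15 of 26 interferon gamma genes and 17 of 39 type I interferon genes were lower in all 5 libraries, against 16.6% of all genes. These counts used no floor, so a gene missed in the PBS members could count as lower there. In PBS, 10 of 44 type I genes were at 0 in the members and 1 of 44 in the other class. For interferon gamma genes it was 4 and 3 of 30. The classes also differed in depth. Over the 5 libraries the median was 2145 to 6507.5 UMIs in the members and 13377 to 25644.5 UMIs in the other class. RNA differed between shallow and deep members (below), and the part of depth in the genes higher or lower between the classes was not tested.

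**Figure D4:**
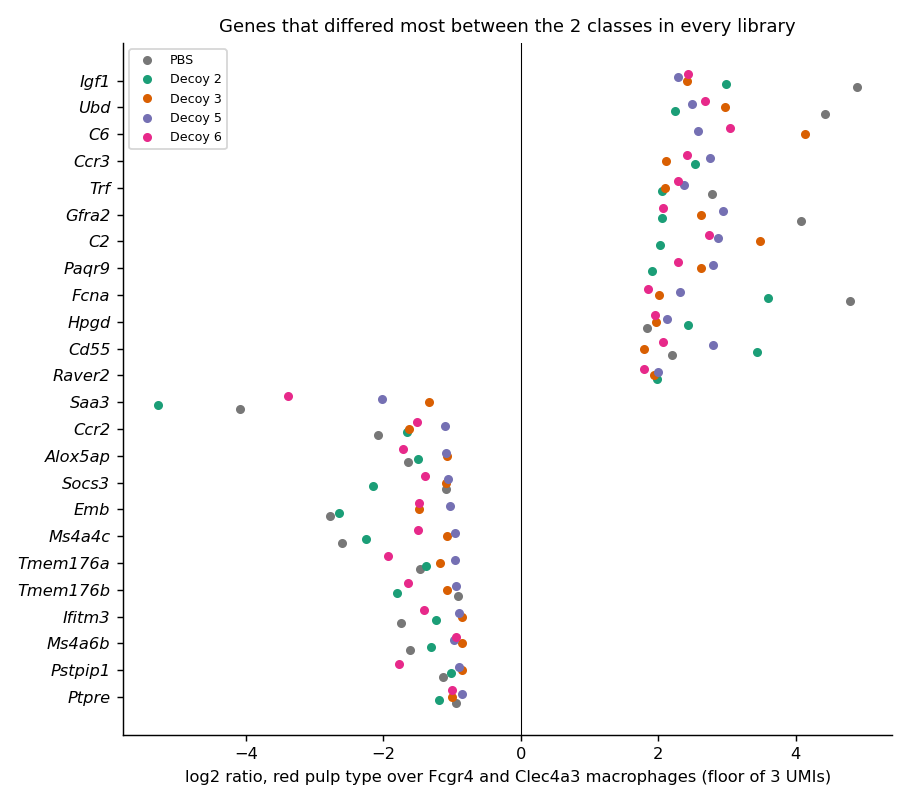
log2 ratio of the level in red pulp type macrophages over that in Fcgr4 and Clec4a3 macrophages of the same library, 1 point per library, with a floor of 3 UMIs; points are left out where both classes had 3 UMIs or fewer. The upper 12 genes lie right of 0 and the lower 12, led by Saa3, left of 0 in every library drawn.

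Whether the Decoy against PBS change differed between the 2 classes was tested as an interaction. Of 10885 genes, 19 were called (0.175%), 12 with a higher and 7 with a lower change in the red pulp type members (edgeR quasi-likelihood, Benjamini-Hochberg). The 12 include Fcgr4, which the rule used to split the classes, so that 18 of the calls lie outside the rule. Hmox1 was among the lower ones: the other class stood at 99.2 CPM in PBS and 963, 1310, 1395 and 1629 CPM in Decoy 2, 3, 5 and 6, a larger ratio than between the 712 and 1683 to 2413 CPM of the members, with a difference of log2 fold changes of -2.16 ± 0.27 (SE, edgeR adjusted p = 0.0156). Cfb, complement factor B, stood at 121 CPM in PBS and 544 to 735 CPM in Decoy in the other class, but at 495 CPM and 562 to 754 CPM in the members (difference -1.98 ± 0.21, SE, adjusted p = 0.00755). Fabp5 was lower in Decoy members, whereas the other class stood at 339 CPM in PBS and 390 to 455 CPM in Decoy (difference -2.46 ± 0.25, SE, adjusted p = 0.00755). In PBS the members stood above the other class in all 3 genes. Depth differed too: 5 of 21 PBS members but 22 of 27 PBS barcodes of the other class held at least 5000 UMIs. Without droplets holding lymphoid or stromal markers 0 genes were called in this test (702 at an unadjusted p under 0.05).

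The members fell into shallow and deep barcodes whose RNA differed. Of the 465, 258 held under 5000 UMIs, with library medians of 1642 to 2203 UMIs, and 207 held at least 5000, with medians of 8555 to 33076 UMIs. The deep members gave 62.6% of the UMIs in the PBS sum and 82.5% to 94.4% in the Decoy sums. The genes named in the comparison of these 2 sets were chosen after their values were seen. Of 2607 genes with a mean of at least 50 CPM, 627 (24.1%) were higher and 613 (23.5%) lower in the shallow members of all 4 Decoy libraries.

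Nuclear RNAs stood lower in the shallow members. Malat1, a long noncoding RNA kept in the nucleus, stood at 359, 9338, 452 and 1800 CPM in shallow members of Decoy 2, 3, 5 and 6, against 10288, 14432, 14204 and 11640 CPM in deep ones. Neat1, the scaffold RNA of nuclear paraspeckles, stood at 12.5 to 60.5 CPM against 92.1 to 249 CPM. In PBS the same order held, at 1454 against 7686 CPM for Malat1. Decoy 3 stood apart from the other libraries in its shallow Malat1 level, and also held 16042 CPM of Igkc in its shallow members, against 137.5 CPM in those of Decoy 6.

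Other genes stood higher in the shallow members. Fth1 stood at 34467, 27375, 35697 and 35445 CPM in shallow members of Decoy 2, 3, 5 and 6, against 13495 to 16729 CPM in deep ones. Hmox1 stood at 3721, 3214, 5676 and 4426 CPM against 1421 to 2163 CPM, and Marco, a scavenger receptor, at 388 to 1436 CPM against 134 to 345 CPM. Il18 stood at 458 to 774 CPM against 168 to 219 CPM. Not all member genes followed: Cd5l was at 1100 to 1348 CPM in shallow and 1000 to 1285 CPM in deep members, and Slc40a1, Csf1r and Mertk were lower in the shallow members of all 4 Decoy libraries. Mitochondrial UMIs, a measure of RNA quality, had medians of 2.60% to 4.35% in shallow and 4.54% to 5.95% in deep members over the 5 libraries.

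**Figure D5:**
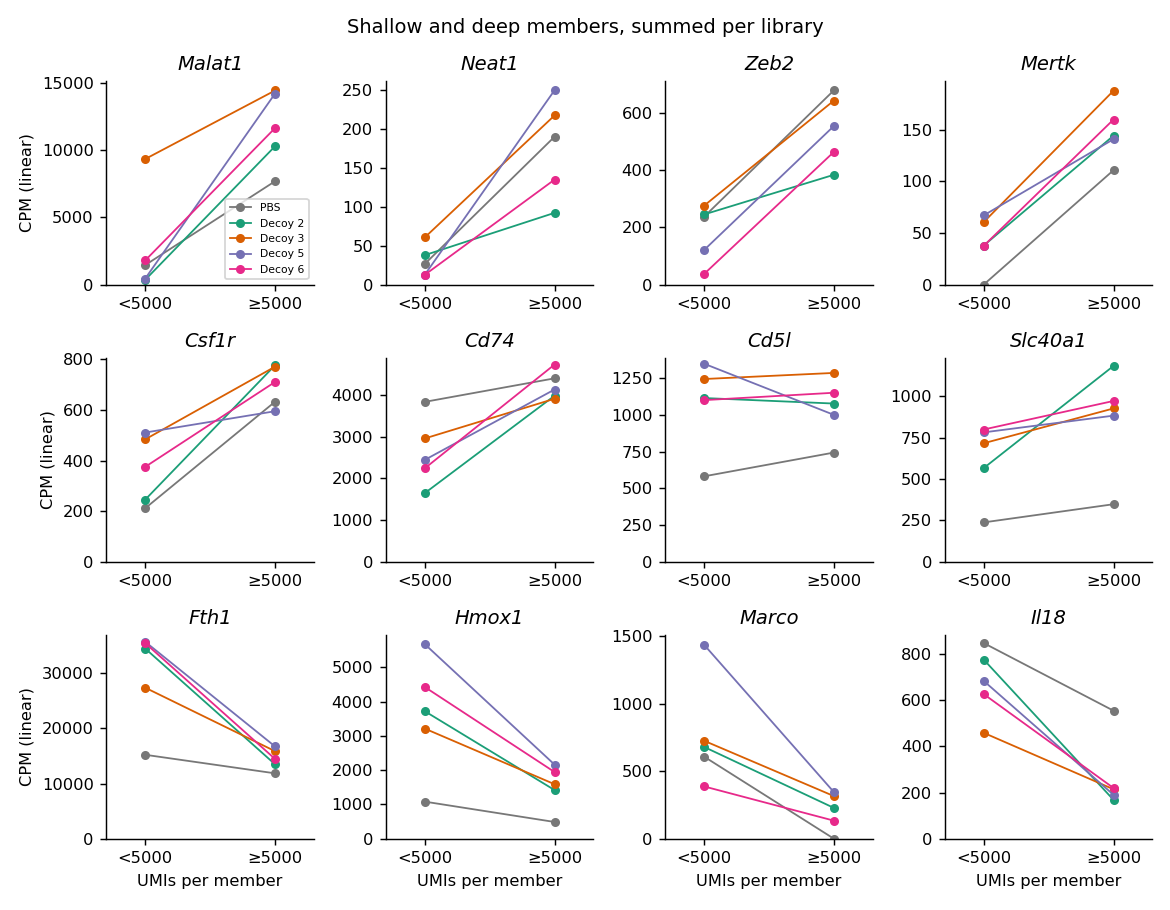
CPM of 12 genes in the summed members with under 5000 UMIs and with at least 5000 UMIs, joined for each of the 5 libraries, on linear axes. Malat1, Neat1, Zeb2, Mertk and Csf1r are lower, and Fth1, Hmox1, Marco and Il18 higher, in the shallow members of each library.

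RNA of other cells was unevenly spread over the libraries and the members. Neutrophil and granule markers, of which the rule limited S100a8 and S100a9, summed to 39.6 CPM in PBS, with 6 of 10 genes at 0. They summed to 175, 4613, 3915 and 542 CPM in the members of Decoy 2, 3, 5 and 6. Igkc, the immunoglobulin kappa constant chain of B and plasma cells, stood at 182 CPM in PBS and 27.4, 14504, 29482 and 40280 CPM in Decoy 2, 3, 5 and 6. The 42 members with at least 1% of their UMIs in Igkc held 95.8% to 98.0% of it in Decoy 3, 5 and 6, and the rest stood at 796 to 1011 CPM there. Haemoglobin was concentrated in the same way outside Decoy 3. Members with at least 1% numbered 1, 2, 11 and 3 in PBS, Decoy 2, 5 and 6, and held 96.4% to 99.8% of it there. In Decoy 3 the 3 such members held 10.1% of it. Hbb-bs, adult beta globin, stood at 12413 CPM in PBS and 31096, 95.9, 3921 and 5072 CPM in Decoy. Red pulp macrophages take up red cells, so whether this RNA was engulfed, free or from a second cell in the droplet cannot be told apart.

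Transcripts of the sex chromosomes differed between the members and the barcodes with mast cell genes in every library but Decoy 5. Xist, which is made by cells with 2 X chromosomes, stood at 892 to 1001 CPM in barcodes above the mast cell gene limit in PBS, Decoy 2, 3 and 6. The 4 Y-linked genes stood at 0.83 to 10.9 CPM there. In Decoy 5 the 13 barcodes above that limit held 0 Xist UMIs and 142 CPM of the Y-linked genes. In the members Xist stood at 139, 132, 2.44, 0 and 3.03 CPM in PBS, Decoy 2, 3, 5 and 6, and the Y-linked genes at 59.4, 79.3, 144, 135 and 135 CPM. Of the 465 members, 202 held only Y-linked UMIs, 9 only Xist, 8 both and 246 neither. In PBS a single member held 13 of the 14 Xist UMIs and in Decoy 2 a single member held 35 of 40.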

How the data were processed

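The deposited matrices hold UMI counts per gene and barcode, with no normalization, for 5 libraries and 32285 genes; per the file headers they were written by Cell Ranger 5.0.0, while the submitters' processing notes name Cell Ranger 3.1, Seurat 4, DESeq2 and mm10. The lowest deposited barcode had 500 to 502 UMIs. Members and gene lists were chosen with earlier results of these data known. The member rule was applied to each library with no doublet caller, and UMI counts were summed per library. CPM were scaled by TMM for the Decoy against PBS comparison and by totals between classes and depths. Sums were fitted with edgeR 4.0.16 in R 4.3.3 (filterByExpr, TMM, glmQLFit, treatment as the only term; library and class for the interaction; 3 residual degrees of freedom in the first), tested on simulated counts, and adjusted over all genes tested. DESeq2 1.42.0 and limma 3.58.1 voom were alternatives, with other filters, scalings, member limits and each Decoy library left out. A PBS value carries an exact 95% Poisson interval, and intervals and floors cover counting error only. Shares use exact Clopper-Pearson intervals. Named genes were a fixed list, all called genes, the 2 most abundant genes of each list or up to 4 called ones, the 12 most different genes between classes in each direction over all libraries, and the 10 most variable among Decoy libraries; others named were chosen after their values were seen. Coordinates are from GENCODE vM21, where 32235 gene identifiers matched. A result for 1 gene is not reported here.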

Additional observations from a re-analysis of the deposited data

Results flagged for a closer look

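The highest or lowest of the 4 Decoy libraries stood far from the other 3, by a gap over range above Dixon's 95% critical value, in 15 of 115 sets of 4 values examined. Of these, 6 (Igha, Ighg3, Iglc3, Ifitm1, Elane and Car1) are among 10 genes named because they varied most among the Decoy libraries, so the rate of about 1 in 20 that chance gives does not apply to them; 9 of the other 105 sets stood out. Decoy 2 was the high library for Xist (gap over range 0.976), Ifitm1 (0.952), Hbb-bs (0.840), Car1 (0.879), Egfl7 (0.953), Kit (0.865), Klrd1 (0.968) and Slbp (0.963). Decoy 5 was high for Igha (0.992), Ighg3 (0.970), Elane (0.873), Emb (0.930) and Vsig4 (1.0). Decoy 6 was high for Iglc3 (0.968) and Decoy 3 low for Hspa8 (0.860). Ifitm1 stood at 787 CPM in Decoy 2 and 17.2 to 53.8 CPM in the others.

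The change from PBS to Decoy differed between the red pulp type and the Fcgr4 and Clec4a3 macrophages in 18 genes outside the rule by edgeR's interaction test. The difference of log2 fold changes was higher in the red pulp type members for Atp2b1 (2.63), Birc5 (2.48), Ccnd2 (3.36), Cd244a (4.13), Cd72 (4.68), Iqgap1 (1.56), Tmed10 (1.88), mt-Atp6 (0.77), mt-Co1 (0.65) and mt-Co2 (0.85). S100a6 (12.61) had 0 UMIs in the PBS members, so its size is set by the model. It was lower for Cfb (-1.98), Fabp5 (-2.46), Ftl1 (-1.08), Gm26917 (-2.68), Hmox1 (-2.16), Il18 (-2.74) and Tmsb4x (-0.98). The part of depth in these differences was not tested beyond the alternatives below.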

How the results depend on the processing

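The 2 genes called between Decoy and PBS became 139 with DESeq2 (7551 adjusted p-values not given), 20 with library totals alone, 89 with no low-count filter, 14 with sums thinned to the smallest library, 1 among members of at least 5000 UMIs, 48 at 5% mitochondrial UMIs or fewer and 0 without mixed droplets (839 at an unadjusted p under 0.05); leaving out 1 Decoy library gave 0 to 65. Alternatives chosen after seeing the data gave 24 with members capped at 3000 UMIs, 8 under 5000 UMIs, 0 without other lymphoid markers (822 at an unadjusted p under 0.05), 84 without the deepest PBS member and 4 without haemoglobin and immunoglobulin genes. The 19 interaction calls became 89 with DESeq2, 175 with no filter, 32 at C1q of at least 20 per 10000, 78 at 5% mitochondrial UMIs or fewer, 0 without mixed droplets, 6 to 129 with 1 Decoy library left out, 30 under 5000 UMIs, 2 without other lymphoid markers and 80 without the deepest PBS member. Interaction differences that changed sign under 5000 UMIs were Birc5 (-4.05), Ccnd2 (-4.58), Iqgap1 (-1.44), mt-Atp6 (-0.47), mt-Co1 (-0.92), mt-Co2 (-0.86) and Tmed10 (-0.91); Cfb was 0.74 at 5% mitochondrial UMIs or fewer, and Gm26917 was 0.29 at the stricter C1q limit, 0.57 at 5000 UMIs or more and 11.70 at 5% mitochondrial UMIs or fewer. The cause was not tested. Ccl5, Fabp5, Hmox1, Slc40a1, Lgmn and Itgb2 kept their direction under all 21 alternatives run, and both shares kept theirs, with the kept share 2.65 to 4.55 points higher and the macrophage share -22.1 to -18.8 points with 1 Decoy library left out. The kept share difference was 1.20 points without mixed droplets, 1.86 under 5000 UMIs and 1.98 at 5000 UMIs or more, and the macrophage share difference -6.65 points at 5000 UMIs or more and -31.8 at 5% mitochondrial UMIs or fewer. No paired analysis was possible because the PBS group is 1 library and shares no replicate number with the Decoy libraries. The single PBS library of 21 members limits every comparison: 1 PBS UMI is 9.56 CPM.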
